A study of Mus musculus with 6 samples.

Results

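Genes of the endoplasmic reticulum calcium store were followed in the dorsal striatum of Ash1l heterozygous mice and wild type mice. The 10 genes were chosen by name as rows of the deposited gene table and encode the ryanodine receptors (Ryr1, Ryr2, Ryr3), the inositol trisphosphate (IP3) receptors (Itpr1, Itpr2, Itpr3), 2 SERCA calcium pumps (Atp2a2, Atp2a3) and the STIM calcium sensors (Stim1, Stim2). All 10 were found among the 34745 genes of the table, and all 10 passed the filter on low counts that left 15267 genes for testing. RNA came from 3 samples of Ash1l heterozygous mice (Ash1l het) and 3 of wild type mice (WT), of strain C57BL/6 and 1 year old in both groups. The labels do not say where the Ash1l mutation lies or how the allele was made. They number the samples as replicates but do not tie each to an animal of its own, so a p-value reflects only how far these samples vary, which may be technical.

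The endoplasmic reticulum holds calcium that neurons release on demand. Ryanodine receptors open when calcium enters the cytosol, and IP3 receptors open when receptors coupled to Gq and phospholipase C generate IP3. SERCA pumps return the calcium to the store, and STIM proteins sense its depletion and open ORAI channels in the plasma membrane. In the spiny projection neurons of the striatum, this release is one of the ways in which glutamate and dopamine signals are turned into calcium signals. All levels below are from bulk tissue, where fewer cells of a type and less RNA per cell cannot be told apart.

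The choice of these 10 genes was made with earlier results of the same comparison known, so their differences between Ash1l het and WT are given as a description. In that comparison Ryr1 stood at rank 18 and Atp2a2 at rank 24 of 15267 genes by unadjusted p. In CPM both genes were lower in all 3 Ash1l het libraries than in any WT library, as were Itpr1 and 5.53% of all genes tested. Of the 10 genes, 0 passed the edgeR quasi-likelihood test at a Benjamini-Hochberg adjusted p under 0.05, where 0.0131% of all genes tested passed. The exact test of edgeR, which called 0.177% of all genes, also called 0 of the 10. DESeq2, which called 0.255% of all genes, called 2 of the 10, Ryr1 and Atp2a2. At an unadjusted p under 0.05 the edgeR quasi-likelihood test held the same 2, where 5.78% of all genes tested were under it.

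Libraries held between 12080663 and 18798694 counts. Ash1l het replicates 1 and 2 stood apart from the other 4 libraries on principal component 1 of log2 CPM, at scores of -28.1 and -28.5 against 4.18 to 23.8. That component held 27.9% of the variance. On principal component 2 the same 2 replicates lay at opposite ends, at 34.8 and -34.3, against -2.54 to 4.70 in the other 4 libraries. With both left out, an alternative added after seeing the data that leaves 1 Ash1l het library, assumed to vary like the others, the log2 fold changes were -0.50 for Ryr1 and -0.44 for Atp2a2, and neither passed (edgeR adjusted p = 0.397 and 0.086). The labels' protocol describes male mice, whereas all 6 libraries held 1901 to 2984 CPM, of the library total, of Xist, the RNA of the silenced X chromosome in female cells. Counts of 4 Y-linked genes summed to 0 in 5 libraries and to 1 in WT replicate 1. By these genes the RNA of all 6 libraries looks female in both groups, against the labels' protocol. Ash1l itself, the targeted gene, had 281, 198 and 253 CPM in Ash1l het libraries, against 308, 295 and 293 CPM in WT, a log2 fold change of -0.29 (SE 0.13) that did not pass (edgeR adjusted p = 0.858). That fold change was -0.16 without Ash1l het replicate 2, and ran from -0.41 to -0.16 with single libraries left out.

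Promoter windows from RefSeq (build GRCm38.p6, 250 bases before to 50 bases after the gene's start) were found for 7 of the 10 genes, and not for Ryr3, Itpr1 and Atp2a2. The windows of Ryr1, whose groups did not overlap, and of its relative Ryr2, whose groups did, are shown because the genes encode the same kind of channel. Both lie on the minus strand, at chr7:29125102-29125401 for Ryr1 and chr13:12106896-12107195 for Ryr2, and are written 5′ to 3′. Capitals mark matches to the GC box GGGCGG on either strand.
Ryr1: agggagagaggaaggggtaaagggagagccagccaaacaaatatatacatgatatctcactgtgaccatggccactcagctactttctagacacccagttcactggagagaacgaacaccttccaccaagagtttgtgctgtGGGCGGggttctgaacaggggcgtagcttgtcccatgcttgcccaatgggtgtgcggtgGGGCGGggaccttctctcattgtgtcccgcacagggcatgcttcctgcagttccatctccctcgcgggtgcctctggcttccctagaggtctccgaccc
Ryr2: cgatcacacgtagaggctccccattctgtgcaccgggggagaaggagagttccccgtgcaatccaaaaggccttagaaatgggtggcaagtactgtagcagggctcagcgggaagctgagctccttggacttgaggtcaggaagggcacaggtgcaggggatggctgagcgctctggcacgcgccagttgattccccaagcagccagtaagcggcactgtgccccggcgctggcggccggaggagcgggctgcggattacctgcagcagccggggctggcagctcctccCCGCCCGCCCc
Each window held 2 GC box matches, and those of Ryr2 overlap each other. Of 32851 promoter windows of the same length, 35.7% held at least 1 match. The TATA box TATAAA, found in 13.6% of all windows, the cAMP response element TGACGTCA, found in 1.8%, and the E-box CAGCTG, found in 16.3%, had 0 matches in both windows on either strand. The Ryr1 window had 9 CpG dinucleotides and 56.7% G and C, and the Ryr2 window had 18 and 65.3%. Stim2, with 39 CpG, and Stim1, with 38, had the most among the 7 windows, and Ryr1 had the fewest.

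Levels were first compared between the genes as the authors' FPKM, which divides by 1 length per gene. The lengths implied by the FPKM ran from 3597 bases for Stim1 to 20514 for Ryr3, and the order below depends on them. Atp2a2, the pump found in most tissues, averaged 90.0 FPKM over the 6 libraries (72.0 to 107). Itpr1, the main IP3 receptor of central neurons, averaged 68.9 FPKM (62.4 to 73.4), and its range overlapped that of Atp2a2. Stim1 followed at 34.1 FPKM (30.0 to 36.6) and Ryr3 at 15.5 FPKM (14.7 to 16.7), each apart from its neighbours in the order. The ranges of Stim2 at 10.3 FPKM (7.51 to 12.5), Ryr2 at 7.48 FPKM (6.97 to 8.23) and Ryr1 at 6.48 FPKM (4.71 to 8.65) overlapped in turn. The order of the last pair was not the same in all libraries. FPKM ratios of Ryr2 to Ryr1 were 1.28 to 1.53 in Ash1l het libraries, against 1.06, 0.919 and 0.951 in WT. Ryr2 thus lay above Ryr1 in every Ash1l het library and in WT replicate 1, and below it in WT replicates 2 and 3. Lowest were Itpr2 at 1.71, Atp2a3 at 1.04 and Itpr3 at 0.740 FPKM, with ranges that did not overlap. Among the IP3 receptors and the SERCA genes 1 gene led in this tissue. Itpr1 made up 96.1% to 96.8% of the summed FPKM of the IP3 receptors in all 6 libraries, and Atp2a2 made up 98.6% to 99.1% of that of the SERCA genes. The third SERCA gene, Atp2a1, the pump of fast skeletal muscle, had 0 to 3 counts per library.

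**Figure D1:**
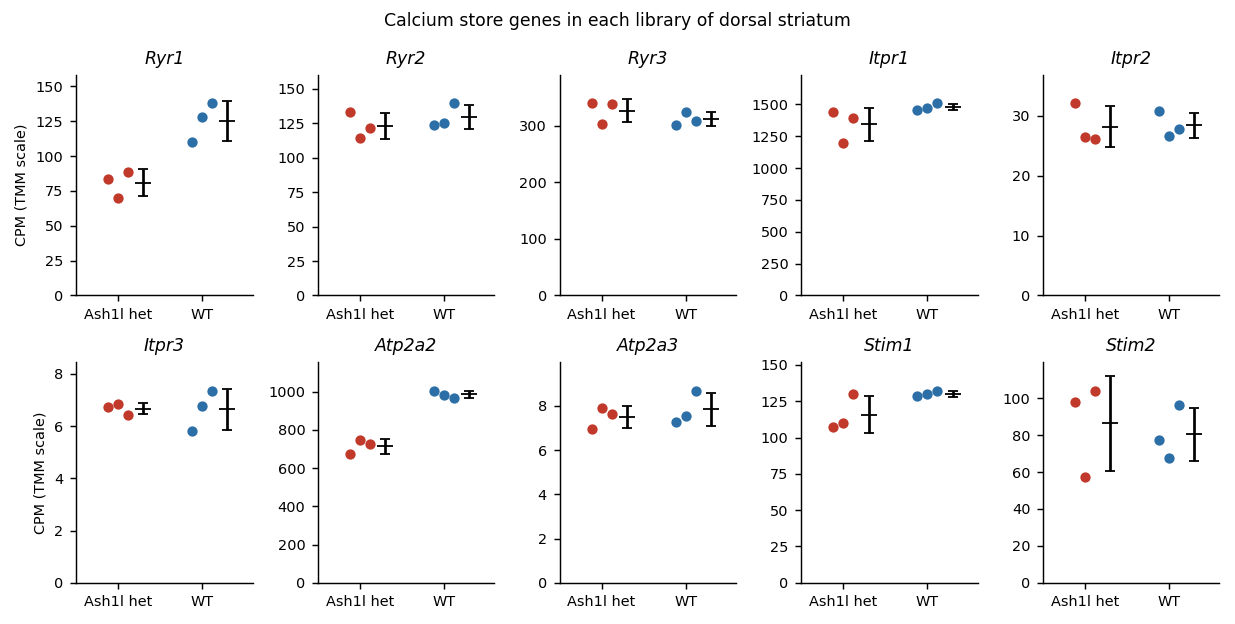
Level of each of the 10 genes in each library, in CPM on the TMM scale, with Ash1l het on the left of each panel and WT on the right. Points are libraries (replicates 1 to 3 from left to right) and the bar beside them is the mean ± SD; Ryr1, Itpr1 and Atp2a2 show every Ash1l het library below every WT library.

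Ryanodine receptors differed among themselves. Ryr1, best known as the release channel of skeletal muscle and also expressed in brain, had 83.7, 70.2 and 88.9 CPM in Ash1l het libraries, against 110, 128 and 138 CPM in WT, on the scale set by TMM (edgeR's trimmed mean of M-values). The highest Ash1l het library lay below the lowest WT library. The means were 80.9 ± 9.67 CPM in Ash1l het libraries, against 125 ± 14.3 CPM in WT (mean ± SD, n = 3 in each group), and the fitted level in Ash1l het was 64.5% of WT (95% interval 52.8% to 78.9%; log2 fold change -0.63, SE 0.13; edgeR adjusted p = 0.645). Counts behind these values ran from 1077 to 2381 per library. The gene (ENSMUSG00000030592) lies on GRCm38 chromosome 7, 29003340 to 29125151, minus strand. The antisense gene Gm26604, annotated over it on the opposite strand, had 3 to 8 counts per library.

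Ryr2, the cardiac release channel and a widespread one in brain, had 133, 114 and 121 CPM in Ash1l het libraries, against 123, 125 and 139 CPM in WT. The groups overlapped, and the fitted level in Ash1l het was 94.9% of WT (95% interval 80.6% to 112%). Ryr3, the third isoform, known from hippocampus and striatum, had 340, 303 and 338 CPM in Ash1l het libraries, against 301, 325 and 308 CPM in WT, with overlapping groups and a fitted level of 105% of WT (95% interval 89.7% to 123%). On the FPKM scale, which divides by the library total instead of the TMM scale, Ryr3 had 16.7, 15.7 and 15.9 FPKM in Ash1l het libraries, against 14.7, 15.2 and 14.9 FPKM in WT, so there the groups did not overlap. Whether Ryr3 separates the groups therefore changes with the scaling, whereas Ryr1 separated them on both scales. Ryr3 rests on 3641 to 6150 counts per library, and Aven, which overlaps it on the opposite strand, had 76 to 119.

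Within a library the scaling cancels. The FPKM ratio of Ryr3 to Ryr1 was 3.13, 3.33 and 2.94 in Ash1l het libraries, against 2.12, 1.95 and 1.73 in WT. The lowest of the Ash1l het ratios lay above the highest WT ratio. Ryr1 made up 17.8%, 17.0% and 19.2% of the summed ryanodine receptor FPKM in Ash1l het libraries, against 23.9%, 25.8% and 27.2% in WT. Its share was smaller in each Ash1l het library. Ryr3 made up 56.3% ± 0.568 in Ash1l het libraries, against 49.4% ± 2.12 in WT (mean ± SD, n = 3 in each group), and Ryr2 made up 25.7% ± 1.03 in Ash1l het libraries, against 25.0% ± 1.11 in WT. The summed FPKM of all 3 was 30.0, 27.6 and 28.3 in Ash1l het libraries, against 28.9, 30.2 and 31.8 in WT, which overlapped. These shares use the same values as the fold changes and were not tested. Their sizes moved when taken from summed counts instead of FPKM. The mean Ryr1 share was then 15.2% in Ash1l het libraries, against 22.1% in WT, and the mean Ryr3 share 61.6%, against 55.1%.

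**Figure D2:**
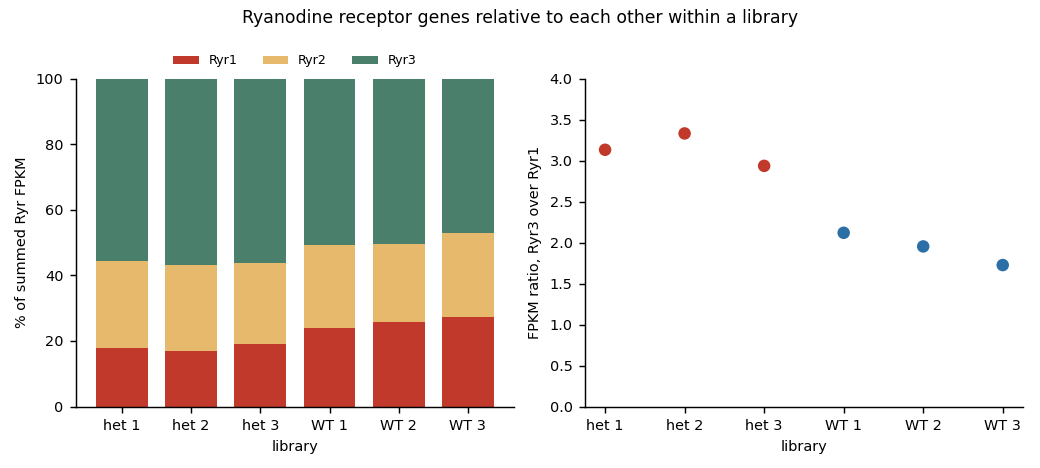
Left, percent of the summed ryanodine receptor FPKM taken by Ryr1, Ryr2 and Ryr3 in each library; right, the FPKM ratio of Ryr3 to Ryr1 in each library, Ash1l het (red) before WT (blue). The Ryr1 share was 17.0% to 19.2% in Ash1l het libraries, against 23.9% to 27.2% in WT.

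IP3 receptors showed small or no separation. Itpr1 had 1443, 1198 and 1391 CPM in Ash1l het libraries, against 1458, 1471 and 1508 CPM in WT, with a fitted level in Ash1l het of 90.9% of WT (95% interval 76.3% to 108%; edgeR adjusted p = 0.897). All 3 Ash1l het libraries lay below WT in CPM, but replicate 1, at 1443 CPM, lay close under the lowest WT library, at 1458 CPM, and in FPKM the groups overlapped. Itpr2, the isoform of astrocytes and other non-neuronal cells, had 32.1, 26.5 and 26.1 CPM in Ash1l het libraries, against 30.8, 26.7 and 27.7 CPM in WT. Itpr3, an isoform of epithelial and secretory cells, had 6.73, 6.84 and 6.43 CPM in Ash1l het libraries, against 5.80, 6.76 and 7.35 CPM in WT, from 70 to 127 counts per library. Both overlapped, at fitted levels of 99.4% (95% interval 81.4% to 121%) and 100.2% (95% interval 76.6% to 131%) of WT.

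SERCA pumps were led by Atp2a2, which encodes SERCA2 and refills the store in neurons and glia. It had 672, 749 and 724 CPM in Ash1l het libraries, against 1005, 985 and 966 CPM in WT. The highest Ash1l het library, at 749 CPM, lay well under the lowest WT library, at 966 CPM. The means were 715 ± 39.0 CPM in Ash1l het libraries, against 985 ± 19.8 CPM in WT (mean ± SD, n = 3 in each group), with a fit at 72.6% of WT (95% interval 62.0% to 84.9%; log2 fold change -0.46, SE 0.10; edgeR adjusted p = 0.690). The gene (ENSMUSG00000029467) lies on GRCm38 chromosome 5, 122453513 to 122502225, minus strand, and its values rest on 9888 to 16681 counts per library. Atp2a3, the SERCA3 gene of blood and endothelial cells and cerebellar Purkinje cells, had 6.94, 7.88 and 7.64 CPM in Ash1l het libraries, against 7.29, 7.53 and 8.68 CPM in WT, which overlapped, at 95.5% of WT (95% interval 74.0% to 123%). Of the summed SERCA FPKM, Atp2a3 took 1.30%, 1.32% and 1.33% in Ash1l het libraries, against 0.915%, 0.965% and 1.13% in WT.

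STIM genes overlapped between the groups. Stim1, the sensor of strong store depletion, had 107, 110 and 130 CPM in Ash1l het libraries, against 128, 130 and 132 CPM in WT; Ash1l het replicates 1 and 2 lay below WT and replicate 3 within its range. The fit put Ash1l het at 88.9% of WT (95% interval 75.2% to 105%), a log2 fold change of -0.17 that came to 0.00077 without replicates 1 and 2. Stim2, the sensor that responds to small drops in store calcium, had 97.8, 57.1 and 104 CPM in Ash1l het libraries, against 77.2, 67.7 and 96.2 CPM in WT. It varied most within the groups of the 10 genes, with a coefficient of variation of 29.6% in Ash1l het libraries, against 18.0% in WT, and its interval was the widest, 73.4% to 157% of WT.

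**Figure D3:**
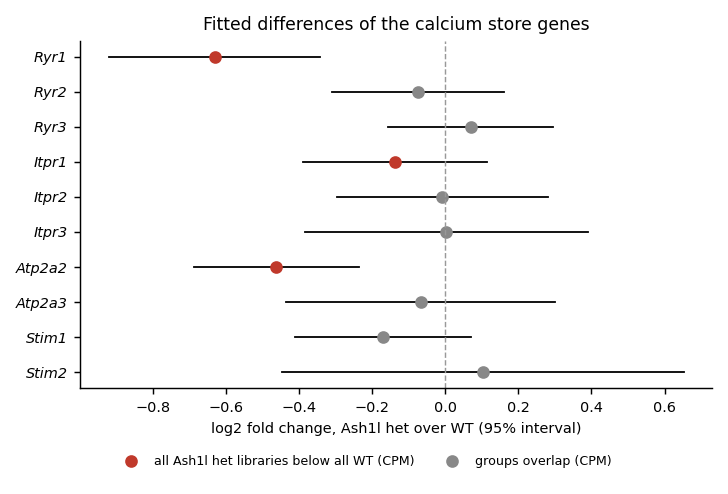
Log2 fold change of Ash1l het over WT for each of the 10 genes, with the 95% interval of the edgeR fit. Red points are genes whose Ash1l het libraries all lay below WT in CPM; the Ryr1 and Atp2a2 intervals end at -0.34 and -0.24, and the other 8 intervals include 0.

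Counted together, 7 of the 10 genes had a log2 fold change below 0, against 48.6% of all genes tested, and their median was -0.07, against 0.01 over all genes tested. In TMM-scaled CPM, groups did not overlap for 3 of the 10, each with Ash1l het below WT, where 5.53% of all genes tested had Ash1l het below WT and 6.18% above WT without overlap. In FPKM, 2 of the 10 had Ash1l het below WT without overlap and 1, Ryr3, had it above. The share of all genes without overlap was not taken on the FPKM scale, so these FPKM counts have no background beside them. At an unadjusted p under 0.05, 2 of the 10 were lower and 0 higher, against 2.67% and 3.1% of all genes tested. Nothing is read from these counts, since the genes were chosen with this comparison known.

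Cell type markers were set beside the differences. The summed CPM of 16 spiny projection neuron markers was 11078, 11107 and 13303 in Ash1l het libraries, against 12928, 12142 and 13106 in WT, and 12 of the 16 had a log2 fold change below 0 (0 passed). In that sum, Ash1l het replicates 1 and 2 lay below every WT library and replicate 3 above. The place of WT replicate 2 rests in part on Pde10a, with 984 CPM there, against 2016 to 2449 CPM in the other libraries. Single genes weigh on the low Ash1l het sums too. Ppp1r1b had 734 CPM in Ash1l het replicate 1, against 1246 to 1466 CPM in the other libraries. Drd2 had 206 CPM in Ash1l het replicate 2, against 364 to 419 CPM in the other libraries. Muscle markers, examined because Ryr1 and Atp2a2 are abundant in muscle, summed to 6.66 to 12.8 CPM over 9 genes in Ash1l het libraries, against 8.37 to 11.7 CPM in WT. Markers of blood cells summed to 56.1 to 123 CPM over 5 genes in Ash1l het libraries, against 23.0 to 35.4 CPM in WT, and all 5 had groups that did not overlap. For 13 endothelial and mural markers the sums were 468 to 591 CPM in Ash1l het libraries, against 396 to 481 CPM in WT, and 11 of the 13 had a log2 fold change above 0. The blood sums thus separated the groups, while the muscle and endothelial sums overlapped. Astrocyte markers (10 genes) summed to 3764 to 5316 CPM in Ash1l het libraries, against 4133 to 5063 CPM in WT, microglia markers (10 genes) to 469 to 722 CPM in Ash1l het libraries, against 457 to 509 CPM in WT, and oligodendrocyte markers (9 genes) to 5732 to 8433 CPM in Ash1l het libraries, against 5634 to 7034 CPM in WT. Markers of cortical neurons (8 genes) summed to 37.7 to 119 CPM in Ash1l het libraries, against 64.9 to 93.1 CPM in WT, of striatal interneurons (9 genes) to 299 to 438 CPM in Ash1l het libraries, against 321 to 418 CPM in WT, and of choroid plexus and ependyma (7 genes) to 51.8 to 60.5 CPM in Ash1l het libraries, against 49.7 to 66.3 CPM in WT. These 6 sums all overlapped between the groups. Log2 fold changes were above 0 for 4 of 10 astrocyte, 7 of 10 microglia and 8 of 9 oligodendrocyte markers. The same held for 6 of 8 cortical, 5 of 9 interneuron and 3 of 6 tested choroid plexus and ependyma markers. Of the astrocyte sum, Slc1a2 supplied 2292 to 3471 CPM per library. The astrocyte marker Gfap had 412, 733 and 104 CPM in Ash1l het libraries, against 154, 62.1 and 83.7 CPM in WT, which overlapped. The part of any of these cell types in the Ryr1 and Atp2a2 differences was not tested.

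The rest of the calcium store pathway was read from 6 lists with 101 genes, of which 94 were tested. By the edgeR quasi-likelihood test 0 were called higher and 0 lower, and DESeq2 and the exact test of edgeR also called 0. At an unadjusted p under 0.05, 2 were higher and 4 lower, where 3.1% of all genes tested were higher and 2.67% lower, so both counts were near the background. In CPM, groups did not overlap for 3 of the 94 with Ash1l het above WT and 6 with it below. Among all genes tested the shares were 6.18% above and 5.53% below. Of the 94, 60 (63.8%) had a log2 fold change below 0, against 48.6% of all genes tested, with a median of -0.04, against 0.01. The list medians ran between -0.09, for 3 SERCA relatives and regulators, and -0.03, for 13 calcium buffers and chaperones of the endoplasmic reticulum.

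Pumps and exchangers outside the store held the pathway gene with the highest level among those with an unadjusted p under 0.05. Atp2b2, a plasma membrane calcium pump, had 696, 631 and 862 CPM in Ash1l het libraries, against 941, 945 and 945 CPM in WT, with groups that did not overlap and a log2 fold change of -0.37 (SE 0.13), or -0.13 without Ash1l het replicates 1 and 2. Ccdc109b, the file's symbol for the inhibitory uniporter subunit Mcub, had 2.11, 1.89 and 3.35 CPM in Ash1l het libraries, against 1.41, 0.777 and 1.45 CPM in WT, which gave a log2 fold change of 1.03 (SE 0.37). Among IP3 genes, the phospholipase Plch2 had 27.2, 41.7 and 35.7 CPM in Ash1l het libraries, against 47.9, 47.4 and 49.1 CPM in WT, without overlap (log2 fold change -0.46, SE 0.15). Gna11, a G protein subunit that activates phospholipase C, had a log2 fold change of -0.28 (SE 0.15), which was -0.14 without Ash1l het replicate 1 and -0.44 without replicate 3.

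Among junction proteins, Jph2, a junctophilin that holds the store near the plasma membrane, had 0.408, 1.24 and 0.275 CPM in Ash1l het libraries, against 1.16, 2.33 and 1.56 CPM in WT, which overlapped at these low levels; its log2 fold change of -1.42 was -2.31 without Ash1l het replicate 2. Tmem38a, a cation channel of the store membrane, had 62.9 ± 5.20 CPM in Ash1l het libraries, against 71.7 ± 2.88 CPM in WT (mean ± SD, n = 3 in each group), without overlap. Esyt1, a tether between the endoplasmic reticulum and the plasma membrane, had 9.80 ± 1.61 CPM in Ash1l het libraries, against 6.96 ± 0.906 CPM in WT, without overlap, and its relative Esyt2 had a log2 fold change of 0.11 (SE 0.10). Neither Esyt1 nor Tmem38a passed the adjusted test. For the luminal calcium buffers the fitted log2 values were -0.13 (SE 0.11) for Calr and -0.26 (SE 0.24) for Casq2; without Ash1l het replicate 1 they were -0.21 and -0.54, and Casq2 was -0.078 without replicate 3. Vmp1 and Tmx1, membrane proteins of the endoplasmic reticulum reported to act on SERCA, were at -0.09 (SE 0.09) and 0.14 (SE 0.12) on the same scale. Of the small SERCA inhibitors, Pln had 2 to 17 counts and Sln 0 to 5 counts per library, and both were below the filter.

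**Figure D4:**
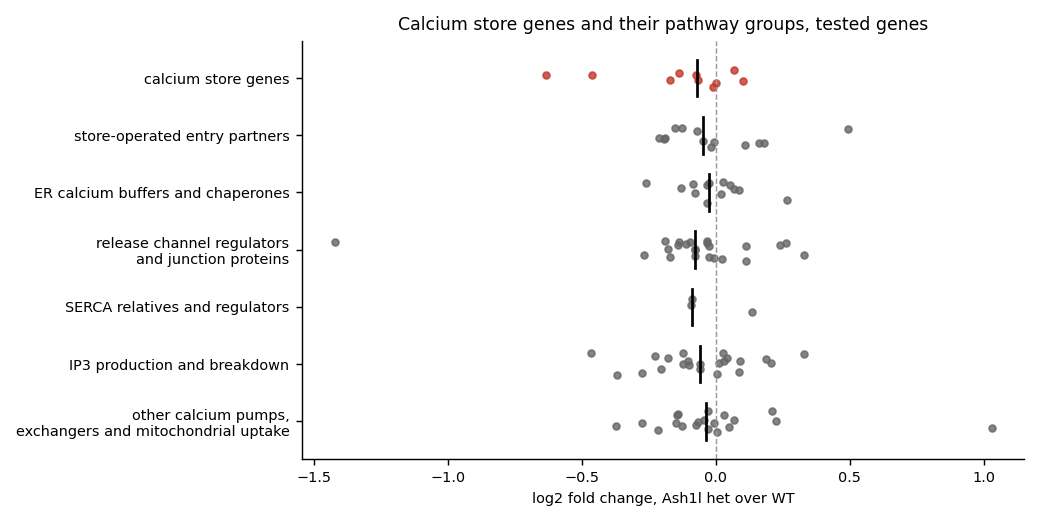
Log2 fold change of Ash1l het over WT for the 10 calcium store genes (red) and the tested genes of the 6 pathway lists (grey), with a black line at each median. The medians lie between -0.09 and -0.03, and Ryr1 and Atp2a2 are the leftmost red points at -0.63 and -0.46.

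Profiles over the 6 libraries were compared for the 3 genes with the largest spread, Ryr1, Stim2 and Atp2a2, by the root mean square difference of centred log2 CPM. The tested genes nearest to Ryr1 were Wnt2, at a difference of 0.0780, and Hist2h3c2, at 0.0838. Nearest to Atp2a2 were Nkd1, at 0.0629, and Hs3st5, at 0.0760. Nearest to Stim2 were Susd2, at 0.0817, and Lrp5, at 0.0954. These are the nearest of 15267 profiles over 6 libraries and describe likeness in these libraries only.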

How the data were processed

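The labels describe TRIzol extraction and a kit for stranded mRNA libraries. Tools named by the submitters' processing notes are CASAVA, FastQC, HISAT2, StringTie and edgeR, with build GRCm38. Their roles and versions, and whether strand was used in counting, are not stated there, so antisense and overlapping genes are uncertain. The authors deposited raw read counts and FPKM per gene; the per-sample files held the same counts for all 6 libraries. The deposited FPKM equals the count divided by library total and by 1 length per gene, whole within 0.1 base for 99.1% of the genes that averaged 10 or more counts.

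Counts were tested in edgeR 4.0.16 under R 4.3.3 by its quasi-likelihood test (robust dispersion, TMM scaling, minimum count 10, genotype as the single term), with Benjamini-Hochberg adjustment over 15267 genes at 0.05. CPM are on the TMM scale. Fold changes put Ash1l het over WT, with the SE and 95% interval of the fit. The steps were tested on simulated data as a check of the code. How often they would call a difference of the size seen here is not reported. Alternatives were DESeq2 1.42.0, the exact test of edgeR, limma-voom and limma 3.58.1 on log2(FPKM + 0.1) and log2(FPKM + 1) for mean FPKM of at least 0.5, RLE and upper-quartile scaling, no filter, 1 CPM in 3 libraries, a replicate block, a threshold of 0.10 and each library left out.

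The members and lists were chosen with earlier results of these data known. Genes named are Ash1l, the 10 genes, Atp2a1, the 2 smallest p-values of each pathway list, and the 2 nearest profiles of the 3 most variable genes with a mean of at least 10 CPM. Overlapping genes, Pln, Sln and the summed markers were named outside that rule. Symbols were matched by identifier or RefSeq synonym; 1 list gene had no match. Intervals reflect the spread between libraries as edgeR estimates it, which draws on all genes tested and not on the gene alone.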

Additional observations from a re-analysis of the deposited data

How the results depend on the processing

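With all 10 genes and 17 alternatives each, 149 of 170 log2 fold changes kept their direction and side of the threshold, 2 passed newly and 19 changed sign. Those that passed newly were Ryr1 (-0.64, adjusted p = 0.0175) and Atp2a2 (-0.47, adjusted p = 0.00811) by DESeq2, which made 39 calls (23 higher, 16 lower), 2 of them among the 10 genes; the cause was not tested. The exact test of edgeR made 27 calls (20 higher, 7 lower), with Ryr1 at an adjusted p of 0.05004 and Atp2a2 at 0.181. Over all alternatives Ryr1 ran from -0.72 to -0.50 and Atp2a2 from -0.50 to -0.42, with adjusted p up to 0.999. With single libraries left out, Ryr1 ran from -0.72 to -0.54 and Atp2a2 from -0.50 to -0.42, and 1 to 13 genes were called, 1 to 9 higher and 0 to 5 lower. Without Ash1l het replicates 1 and 2 there were 50 calls (22 higher, 28 lower), 0 among the 10 genes. Changes of sign were in Itpr2, Itpr3, Atp2a3, Stim1 and Stim2. Itpr2 came to 0.0049 with upper-quartile scaling, and to 0.026 and 0.018 on log2(FPKM + 0.1) and log2(FPKM + 1). Itpr3 came to -0.0024 with RLE scaling, -0.0020 with no filter, -0.0042 by DESeq2, -0.0045 by limma-voom, -0.00035 by the exact test and -0.051 without Ash1l het replicates 1 and 2, where Stim1 came to 0.00077. With single libraries left out, Itpr2 ran from -0.11 to 0.051, Itpr3 from -0.083 to 0.083, Atp2a3 from -0.12 to 0.014 and Stim2 from -0.058 to 0.33. None of the 12 named pathway genes was called or changed sign in 202 values. These 12 had the smallest p of their lists in the main fit of the same data. That choice favours a kept sign, so nothing is read from it. Sizes moved: without Ash1l het replicates 1 and 2, Gna11 came to -0.00071, Atp2b2 to -0.13, Casq2 to -0.71, Jph2 to -2.60 and Esyt2 to 0.025. With single libraries left out, Esyt2 ran from 0.039 to 0.15 and Tmx1 from 0.042 to 0.21. On log2(FPKM + 1), Plch2 came to -0.29, Ccdc109b to 0.48, Casq2 to -0.15 and Vmp1 to -0.046. With a replicate block 3 genes were called and Ryr1 and Atp2a2 were at -0.63 and -0.46. Same-numbered libraries correlated at 0.056, -0.075 and 0.011 in their deviations from the group mean. Differently numbered ones ran from -0.13 to 0.126, so these values cannot tell whether the numbers pair the samples. Counts of 70 to 127 limit what can be seen for Itpr3.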
